A study of Mus musculus with 8 samples.

Results

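The genes Dusp4, Dusp6, Spry1, Spry2, Spry4, Spred1, Etv4, Etv5, Phlda1 and Ier3 were taken by symbol as feedback inhibitors and output genes of ERK signaling. They were chosen with earlier results of these data known. All 10 were found among the 55367 genes of the count table, and all 10 passed the filter that left 12137 genes for testing, a minimum of 10 counts in 3 or more libraries. Their mRNA was measured by poly(A) RNA sequencing in 1 line of fibroblastic reticular cells (FRCs), the stromal cells that build the scaffold of the lymph node, derived from p53ER/ER C57BL/6 mice. The cells were cultured for 4 days in medium with 2% serum under 4 conditions with 2 libraries each: plain RPMI medium to which only water was added (vehicle), the same medium with 15 mM lactic acid (15mMLA, here LA), medium previously held on FRCs (CCM) and medium previously held on melanoma cells of the B16.F10 line (TCM). The comparisons ask what melanoma-conditioned medium does beyond medium conditioned by the FRCs themselves, and what lactic acid alone does.

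ERK is the last kinase of the cascade from growth factor receptors through RAS, RAF and MEK. Active ERK induces genes that restrain the same cascade: the dual-specificity phosphatases DUSP4 and DUSP6 remove phosphate from MAP kinases, and the Sprouty and Spred proteins act upstream, at the level of RAS and RAF. Other genes that follow ERK activity encode the PEA3-type ETS transcription factors ETV4 and ETV5, PHLDA1 and IER3. In fibroblasts the pathway is a main route by which serum and growth factors drive entry into the cell cycle.

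The libraries held 8232889 to 14107964 counts, and levels are given as CPM, the count as a share of the library's total scaled by TMM factors of 0.938 to 1.04. The FRC markers Pdpn and Vcam1 were counted more than 1000 times in every library, Ptprc (CD45) 0 times and Pecam1 (CD31) 4 to 9 times. Other FRC or fibroblast markers examined were uneven. Pdgfra, Pdgfrb and Col1a1 had at least 417 counts in every library, and Col1a2 had 57 to 178. Thy1, a common stromal marker, reached only 1 to 16 counts, Icam1 1 to 8 and Il7 5 to 26. Counts of the 2 TCM libraries differed from each other more than those of other pairs, with a chi-square per degree of freedom of 19.8 against 3.28 to 7.32. The study describes the libraries of a condition as biological replicates. What was replicated in a cell line (culture, day or medium batch) is not given in the sources used here. The p-values measure the spread between libraries within conditions, pooled over the 4 conditions and moderated across genes. Leaving out a library of a condition could therefore change calls in comparisons that do not hold that condition. As the TCM pair differed most, pooling can make calls too easy in comparisons with TCM and too hard in LA over vehicle. A gene was called when its Benjamini-Hochberg adjusted p from edgeR's quasi-likelihood test over all tested genes was below 0.05 and its log2 fold change (FC) was beyond 0.39. An exact permutation test of a single gene with 2 against 2 libraries cannot go below p = 0.333, so no test of that kind was used.

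Most of the called genes were lower in TCM. In TCM over CCM, 5 of the 10 genes fell (Dusp4, Dusp6, Spry4, Etv4 and Phlda1), Ier3 rose, and 4 were not called (Spry1, Spry2, Spred1 and Etv5). The share of all tested genes called in this comparison was 19.1% in either direction, 10.2% being lower and 8.83% higher. The median log2 FC of the 10 genes was -0.57, against 0.00032 over all tested genes. Because the genes were chosen with earlier results of these data known, such contrasts with all genes are descriptions and not tests. LA over vehicle gave another picture: Etv4 and Etv5 rose and the other 8 genes were not called, where 2.55% of all tested genes were called and 1.31% were called higher. By the test of the difference between the 2 effects, 5 genes (Dusp4, Dusp6, Spry4, Etv4 and Etv5) were called, each lower, by edgeR against 10.4% of all tested genes in either direction and 6% lower. DESeq2 called 4 lower and 1 higher, with Ier3 in place of Spry4. The libraries of the compared conditions did not overlap for 8 of the 10 genes in TCM and CCM and for 5 in LA and vehicle, against 58.3% and 48% of all tested genes.

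Cell cycle genes moved in the same comparisons. All 8 proliferation markers examined (Mki67, Top2a, Ccnb1, Cdk1, Pcna, Mcm2, Aurkb and Birc5) fell in TCM over CCM, and 5 of the 8 rose in LA over vehicle. Their summed level was 680 to 721 CPM in vehicle, 1013 to 1058 in CCM, 1015 to 1108 in LA and 502 to 528 in TCM. These are mRNA levels, whereas the study reports no effect of LA or TCM on proliferation of FRCs by Ki67 staining. The part of these markers in the results for the ERK genes was not tested. In bulk RNA, fewer cells that express a gene and less of its RNA per cell cannot be told apart. Transcripts of the melanoma cells themselves were near absent. Tyr was at 0 in every library. The TCM counts were 6 and 3 for Tyrp1, 1 and 1 for Dct and 0 and 1 for Sox10, all being 0 elsewhere. The summed level of 8 melanoma genes was 2.51 to 2.85 CPM in TCM and 2.29 to 3.79 CPM in the other libraries. Most of that sum came from Pmel and Mitf, which were counted in every library, so it cannot show small amounts of melanoma RNA.

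**Figure D1:**
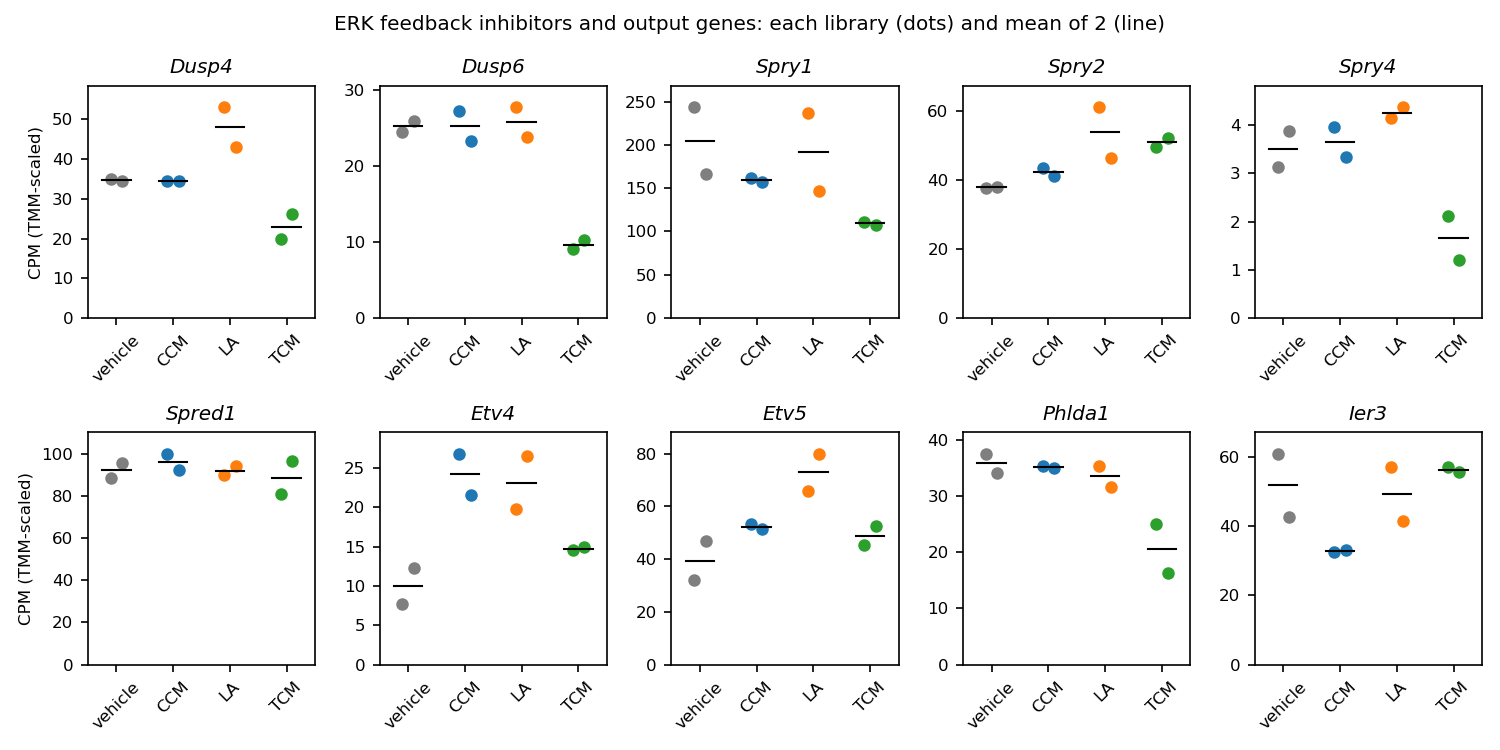
Level of each of the 10 genes in CPM (TMM-scaled, linear axis from 0) in the 8 libraries, dots being libraries and the black line the mean of 2. Dusp6 lies at 9.06 and 10.3 CPM in TCM and between 23.3 and 27.8 CPM in the other 6 libraries, and Etv4 is lowest in the vehicle libraries.

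Dusp6 encodes the cytoplasmic phosphatase that acts on ERK itself, and its level separated TCM from every other condition. It was measured at 24.6 and 26.0 CPM in vehicle, 27.2 and 23.3 CPM in CCM, 27.8 and 23.8 CPM in LA, and 9.06 and 10.3 CPM in TCM. The 3 conditions other than TCM overlapped. Dusp6 was 2.62-fold lower in TCM than in CCM (log2 FC -1.39, SE 0.15, adjusted p = 0.000104 in edgeR), and its rank by p among the 12137 tested genes was 168. In LA over vehicle the log2 FC was 0.02 with a 95% interval of -0.27 to 0.31. The difference between the effects of TCM over CCM and of LA over vehicle was -1.41 (SE 0.20, adjusted p = 0.00106). The fall in TCM was called against CCM, vehicle and LA, and leaving out any 1 library moved the log2 FC against CCM only between -1.50 and -1.27. Dusp6 lies on chromosome 10 (99263231-99267489, plus strand, GRCm38).

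The 250 bases before a RefSeq start site of Dusp6 (GRCm38.p6, chr10:99262981-99263230, plus strand) are shown because Dusp6 had the lowest adjusted p of the 10 genes in TCM over CCM. Capitals mark an NF-kB motif (GGAATTTCC, here on the other strand) 154 bases before the start site and a CCAAT box, also on the other strand, 46 bases before it.
Dusp6: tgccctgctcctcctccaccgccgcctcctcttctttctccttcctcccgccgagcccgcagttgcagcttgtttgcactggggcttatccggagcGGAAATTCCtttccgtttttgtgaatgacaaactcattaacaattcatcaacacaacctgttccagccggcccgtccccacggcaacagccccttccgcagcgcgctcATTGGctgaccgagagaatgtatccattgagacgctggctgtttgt

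Promoter sequence in the RefSeq table was read for 6 of the 10 genes, as 7 windows of 250 bases before to 50 bases after a start site. Dusp4, Spry4, Etv4 and Phlda1 were not read. Chromosome 18, where Spry4 lies, was left out when the windows of the 10 genes were selected. On either strand, the ETS motif CCGGAAGT, the AP-1 motif TGANTCA, the CRE TGACGTCA and the CArG box of serum response elements matched in 0 of the 7 windows, and in 3.89%, 7.81%, 1.79% and 1.63% of the 32851 windows of all genes. The PEA3 motif AGGAAGT matched in 1 of the 7, for Etv5, and in 9.35% of all. The CCAAT box and GGAATTTCC were added after the windows had been read: they matched in 5 and 2 of the 7, and in 37.4% and 0.317% of all. These matches describe the letters of the windows only.

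Dusp4 (GRCm38 chromosome 8, 34807297-34819894, plus strand) encodes a nuclear phosphatase of the same family and was lowest in TCM and highest in LA. Its levels were 35.1 and 34.5 CPM in vehicle, 34.6 and 34.4 CPM in CCM, 53.1 and 43.0 CPM in LA, and 19.8 and 26.1 CPM in TCM. Vehicle and CCM differed by a log2 FC of -0.01 (95% interval -0.33 to 0.30), and the LA and TCM libraries lay outside both on opposite sides. Dusp4 fell 1.50-fold in TCM over CCM (log2 FC -0.59, SE 0.15, adjusted p = 0.0164). In LA over vehicle the log2 FC was 0.46 (adjusted p = 0.135), which was not called. The difference between these effects was called at -1.05 (SE 0.21, adjusted p = 0.00769), and so was TCM directly against LA, at 2.08-fold lower (adjusted p = 0.000656). The call against CCM was lost with only the libraries compared (log2 FC -0.58, adjusted p = 0.0504 in edgeR). It was also lost without CCM replicate 1 (-0.59), CCM replicate 2 (-0.59) or TCM replicate 1 (-0.40). With either TCM library left out, the log2 FC of LA over vehicle was 0.45 and it was called, but so were more of all tested genes.

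**Figure D2:**
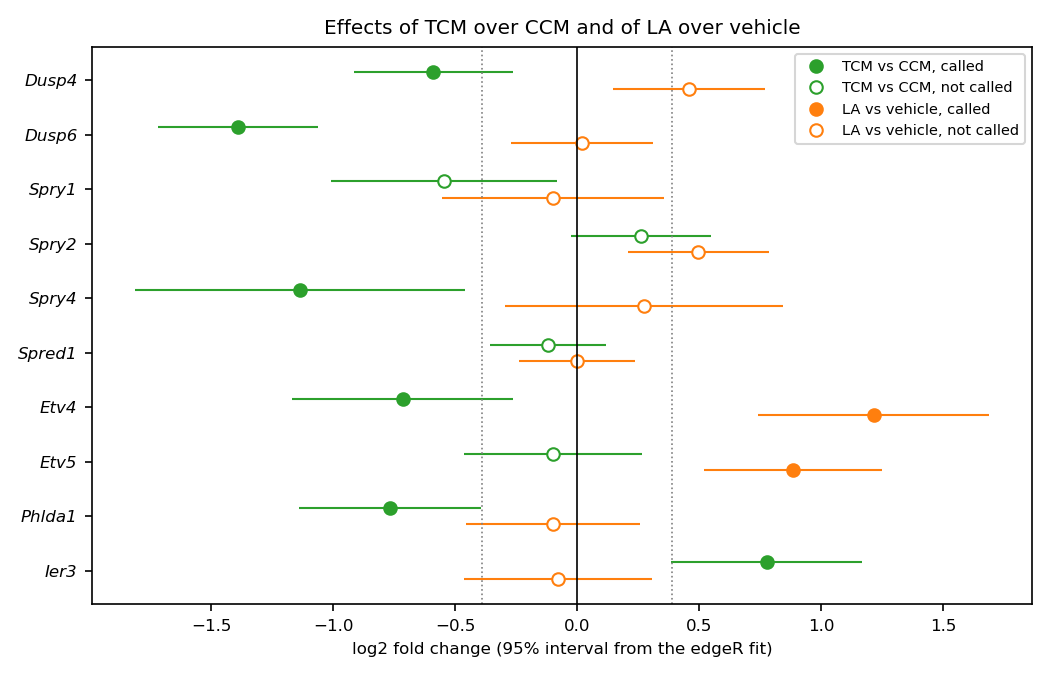
Log2 fold change (x axis) of each gene in TCM over CCM (green) and LA over vehicle (orange), with 95% intervals from the edgeR fit, filled symbols being called and dotted lines marking 0.39 either side of 0. The 2 intervals lie apart for Dusp4, Dusp6, Spry4, Etv4 and Etv5 with TCM over CCM on the left, and apart with TCM over CCM on the right for Ier3.

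The Sprouty genes, which encode adaptor proteins that block receptor signaling upstream of RAF, did not move together. Spry4 had the lowest level of the 10 genes, with 28 and 42 counts in vehicle, 47 and 35 in CCM, 35 and 62 in LA and 20 and 11 in TCM. In CPM this was 3.13 and 3.89 in vehicle, 3.96 and 3.35 in CCM, 4.14 and 4.37 in LA, and 2.11 and 1.20 in TCM. Both TCM libraries were below all others. Spry4 fell 2.20-fold in TCM over CCM (log2 FC -1.14, SE 0.31, adjusted p = 0.0229), a wide interval of -1.81 to -0.46 at these counts. The difference from the effect of LA over vehicle, -1.41 (SE 0.40), passed with an adjusted p = 0.0486. The call against CCM was lost with DESeq2 and with only the libraries compared (log2 FC -1.13, adjusted p = 0.0622 in edgeR). It was also lost without CCM replicate 1 (-1.01), CCM replicate 2 (-1.25) or TCM replicate 2 (-0.80). The call of the difference was lost with DESeq2 (adjusted p = 0.145) and without 7 of the 8 libraries in turn (log2 -1.58 to -1.07), TCM replicate 1 being the exception. The annotated genes Gm27369 and Gm27804 lie opposite Spry4, and whether the counting used strand is not given in the sources used here.

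Spry1 (chromosome 3, 37639947-37644598, plus strand) had the highest level of the 10 genes: 244 and 166 CPM in vehicle, 162 and 157 CPM in CCM, 237 and 146 CPM in LA, and 111 and 108 CPM in TCM. TCM was again below all other libraries, but the 2 libraries of vehicle and of LA lay far apart. In TCM over CCM its log2 FC was -0.54 (SE 0.21, adjusted p = 0.0917), which was not called. It lay near the threshold and was called by DESeq2 (-0.53, adjusted p = 0.0425), with library totals (-0.68, adjusted p = 0.0384), without a filter on low counts (-0.54, adjusted p = 0.000524) and with only the libraries compared (-0.54, adjusted p = 0.0152). It was also called without LA replicate 1 (adjusted p = 0.0356) or LA replicate 2 (0.0353). Against vehicle Spry1 was 1.88-fold lower in TCM (log2 FC -0.91, SE 0.21, adjusted p = 0.0122). That call was lost without vehicle replicate 1 (-0.61, adjusted p = 0.124), TCM replicate 1 (-0.92, 0.25) or TCM replicate 2 (-0.89, 0.226). The annotated gene Gm42922 lies opposite Spry1, and whether the counting used strand is not given in the sources used here, so reads of the 2 could not be told apart without it.

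Spry2 (chromosome 14, 105891947-105896819, minus strand) was the one Sprouty gene that was higher in TCM than in vehicle. Its levels were 37.5 and 38.0 CPM in vehicle, 43.4 and 41.2 CPM in CCM, 61.0 and 46.3 CPM in LA, and 49.4 and 52.2 CPM in TCM. The vehicle libraries were the lowest, and LA and TCM overlapped. Spry2 rose 1.34-fold in TCM over vehicle (log2 FC 0.43, SE 0.13, adjusted p = 0.0448 in edgeR), a call near the threshold. It was lost with DESeq2, with library totals in place of TMM (0.32, adjusted p = 0.125) and with only the libraries compared (0.43, adjusted p = 0.0605). It was also lost without 5 libraries in turn: either vehicle library, either CCM library or TCM replicate 2 (log2 FC 0.39 to 0.43). In TCM over CCM the log2 FC was 0.26 (95% interval -0.02 to 0.55, adjusted p = 0.181) and in LA over vehicle 0.50 (0.21 to 0.79, adjusted p = 0.0808). LA over vehicle was called without TCM replicate 1 or TCM replicate 2 (log2 FC 0.49 both times), but so were more of all tested genes.

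Spred1 (chromosome 2, 117121374-117182279, plus strand), a membrane-bound relative of the Sprouty proteins that brings neurofibromin to RAS, had the narrowest range. Its levels were 88.7 and 96.0 CPM in vehicle, 100.4 and 92.7 CPM in CCM, 90.1 and 94.4 CPM in LA, and 81.0 and 96.8 CPM in TCM. All conditions overlapped. The log2 FC was -0.12 in TCM over CCM (95% interval -0.36 to 0.12) and -0.0011 in LA over vehicle (-0.24 to 0.24). The range of its 4 condition means, 0.12 on the log2 scale, lay at percentile 7.75 of all tested genes, where that of Dusp6, 1.40, lay at percentile 95.2.

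Etv4 (chromosome 11, 101769742-101785371, minus strand) encodes an ETS factor whose expression follows FGF and ERK signaling in many tissues, and here vehicle was its lowest condition. Its levels were 7.71 and 12.2 CPM in vehicle, 26.8 and 21.5 CPM in CCM, 19.8 and 26.5 CPM in LA, and 14.5 and 15.0 CPM in TCM. The vehicle libraries were below all others, TCM came next, and CCM and LA overlapped. Etv4 rose 2.32-fold in LA over vehicle (log2 FC 1.22, SE 0.22, adjusted p = 0.0161) and 2.40-fold in CCM over vehicle (log2 FC 1.26, SE 0.21, adjusted p = 0.0287). LA and CCM differed by -0.05 (95% interval -0.47 to 0.38). In TCM over CCM Etv4 fell 1.64-fold (log2 FC -0.72, SE 0.21, adjusted p = 0.03). LA over vehicle, CCM over vehicle and the difference of effects share vehicle libraries, and the difference, -1.93 (SE 0.30, adjusted p = 0.00184), was the largest in size of the 10 genes. It stayed called with each library left out, between -2.31 and -1.65.

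The separate calls of Etv4 depended on single libraries. LA over vehicle lost its call without vehicle replicate 1 (log2 FC 0.94, adjusted p = 0.128) or LA replicate 2 (0.97, adjusted p = 0.134). TCM over CCM lost it without CCM replicate 1 (-0.54, adjusted p = 0.225), TCM replicate 1 (-0.70, adjusted p = 0.109) or TCM replicate 2 (-0.74, adjusted p = 0.0769). CCM over vehicle lost it without vehicle replicate 1 (0.99, adjusted p = 0.179), vehicle replicate 2 (1.64, adjusted p = 0.165), CCM replicate 1 (1.10, adjusted p = 0.288) or CCM replicate 2 (1.41, adjusted p = 0.109). The sign was the same every time.

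Etv5 (chromosome 16, 22381309-22439719, minus strand), the close relative of Etv4, was highest in LA and showed no call in TCM over CCM. Its levels were 32.1 and 46.7 CPM in vehicle, 53.4 and 51.2 CPM in CCM, 65.8 and 80.0 CPM in LA, and 45.2 and 52.6 CPM in TCM. Both LA libraries were above all others, and TCM overlapped vehicle and CCM. Etv5 rose 1.85-fold in LA over vehicle (log2 FC 0.89, SE 0.17, adjusted p = 0.0206), and in TCM over CCM the log2 FC was -0.10 (95% interval -0.46 to 0.27). The difference of effects was -0.98 (SE 0.23, adjusted p = 0.0212). LA over vehicle lost its call with only the libraries compared (0.89, adjusted p = 0.0634 in edgeR). It also lost it without vehicle replicate 1 (0.65), LA replicate 1 (1.02) or LA replicate 2 (0.73). The difference lost it without vehicle replicate 1 (-0.74, adjusted p = 0.0726), CCM replicate 1 (-0.95, 0.0818), CCM replicate 2 (-1.01, 0.0572), LA replicate 2 (-0.83, 0.0982) or TCM replicate 1 (-0.88, 0.0769).

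The match of the PEA3 motif, the type of site that ETV4 and ETV5 themselves bind, starts 1 base from a RefSeq start site of Etv5 and is shown because it was the only one in the windows read. Its 30 bases (GRCm38.p6, chr16:22438349-22438378, minus strand) are printed with the motif in capitals.
Etv5: cgacgacacaaAGGAAGTggtttaaactcc

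Phlda1 and Ier3 are output genes with roles in cell survival, and they moved in opposite directions in TCM over CCM. Phlda1 (chromosome 10, 111506286-111508645, plus strand) encodes a protein with a pleckstrin homology-like domain and was measured at 37.6 and 34.1 CPM in vehicle, 35.5 and 35.0 CPM in CCM, 35.5 and 31.7 CPM in LA, and 25.1 and 16.3 CPM in TCM. Both TCM libraries were the lowest, and the other conditions overlapped. Phlda1 fell 1.70-fold in TCM over CCM (log2 FC -0.77, SE 0.17, adjusted p = 0.00861), a call that was lost without CCM replicate 1 (-0.76, adjusted p = 0.0529). In LA over vehicle the log2 FC was -0.10 (95% interval -0.46 to 0.26). The difference of effects was -0.67 (adjusted p = 0.103), which was not called. Without TCM replicate 1, the higher of the 2 TCM libraries, it was -1.02 and called (adjusted p = 0.00135). It was also called with library totals (-0.81, adjusted p = 0.0488) and without a filter on low counts (-0.67, adjusted p = 0.0094). Phlda1 has the annotated gene Gm28592 opposite it, with the same limit on strand as for Spry1 and Spry4.

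Ier3 (chromosome 17, 35821684-35822923, plus strand), an immediate early gene known to prolong ERK activation and to respond to NF-kB as well, was lowest in CCM. Its levels were 60.9 and 42.6 CPM in vehicle, 32.6 and 33.1 CPM in CCM, 56.9 and 41.6 CPM in LA, and 57.0 and 55.5 CPM in TCM. The CCM libraries were below all others, which overlapped among themselves. Ier3 rose 1.71-fold in TCM over CCM (log2 FC 0.78, SE 0.18, adjusted p = 0.0103). In TCM over vehicle the log2 FC was 0.13 (95% interval -0.26 to 0.51), and in CCM over vehicle -0.65 (-1.05 to -0.26, adjusted p = 0.111), so neither was called by edgeR, while DESeq2 called the latter (adjusted p = 0.0321). The difference of effects was 0.86 (SE 0.25, adjusted p = 0.0528), just short of a call. It was called by DESeq2 (0.86, adjusted p = 0.0188), with DESeq2 size factors in edgeR (0.87, adjusted p = 0.0497) and without a filter on low counts (0.85, adjusted p = 8.44e-05). It was also called without vehicle replicate 2 (1.10, adjusted p = 0.021) or LA replicate 1 (1.09, adjusted p = 0.027). TCM over CCM lost its call without CCM replicate 1 (adjusted p = 0.0696), CCM replicate 2 (0.0579), TCM replicate 1 (0.0879) or TCM replicate 2 (0.0624), with log2 FC between 0.76 and 0.80.

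The 250 bases before the start site of Ier3 (GRCm38.p6, chr17:35821463-35821712, plus strand) are shown beside those of Dusp6 because these were the 2 windows with GGAATTTCC and the genes moved in opposite directions in TCM over CCM. Capitals mark CCAAT boxes 244 and 175 bases before the start site and GGAATTTCC 139 bases before it.
Ier3: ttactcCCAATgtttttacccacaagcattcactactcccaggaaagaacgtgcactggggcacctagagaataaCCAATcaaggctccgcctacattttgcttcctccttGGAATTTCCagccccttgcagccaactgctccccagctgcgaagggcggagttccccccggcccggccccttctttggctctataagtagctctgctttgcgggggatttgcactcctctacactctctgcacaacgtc

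**Figure D3:**
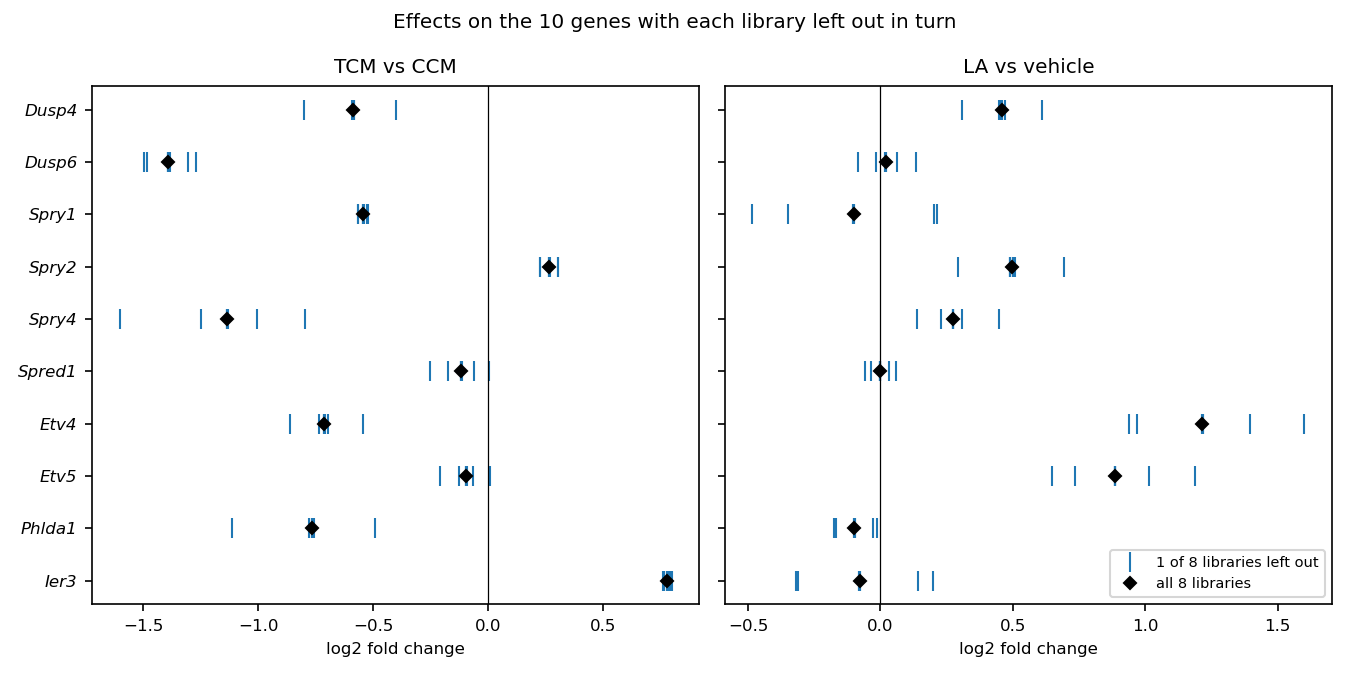
Log2 fold change (x axis) of each gene with all 8 libraries (black diamond) and with each library left out in turn (blue bars), for TCM over CCM on the left and LA over vehicle on the right. Dusp6 stays between -1.50 and -1.27 in TCM over CCM, whereas Spry4 moves between -1.60 and -0.80.

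In the other pairs of conditions, vehicle and CCM showed few called differences among the 10 genes. In CCM over vehicle only Etv4 was called, where 1.3% of all tested genes were and 0.898% were higher. An unadjusted p below 0.05 in edgeR was reached by 3 genes (Etv4, Etv5 and Ier3, at log2 FC 1.26, 0.40 and -0.65). Many other genes reached it too: Etv5, at an unadjusted p = 0.0346 in edgeR, ranked 1260 by p among the 12137 tested genes. The count at this cutoff is therefore not comparable with the share of all genes called. In LA over CCM 0 of the 10 genes were called by edgeR and 0 by DESeq2, with 0.626% of all genes called by edgeR. Here 4 genes had an unadjusted p below 0.05 in edgeR (Dusp4, Spry2, Etv5 and Ier3, at log2 FC 0.47, 0.33, 0.48 and 0.57). Again many other genes did, as Spry2, at an unadjusted p = 0.026 in edgeR, ranked 817 by p among all tested genes. In TCM over vehicle 6 genes were called by edgeR against 17.5% of all genes. Dusp4, Dusp6, Spry1, Spry4 and Phlda1 fell (8.9% of all genes) and Spry2 rose (8.58%). DESeq2 called 4 of these, against 15% of all genes, and not Spry2 (adjusted p = 0.0607) or Spry4 (0.0933). In TCM over LA 7 genes fell (Dusp4, Dusp6, Spry1, Spry4, Etv4, Etv5 and Phlda1) and 0 rose, where 16.1% of all genes were called, 7.77% lower and 8.34% higher. Single libraries changed these counts and the share of all genes called. TCM over vehicle had 1 call without vehicle replicate 1 (9.69% of all genes), 3 without vehicle replicate 2 (9.29%) and 3 without TCM replicate 2 (23.9%). TCM over LA had 3 calls without LA replicate 2 (8.35%) and 4 without TCM replicate 1 (13.5%). A count of 1 in 10 at 9.69% and of 3 in 10 at 23.9% is near the share of all genes. These comparisons share libraries with one another and with TCM over CCM and LA over vehicle.

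Seen per length of exon, the 10 genes spanned a wide range of levels. In CPM per kilobase, Spry1 had condition means of 37.6 (TCM) to 70.5 (vehicle) and Ier3 of 29.0 (CCM) to 49.7 (TCM), and Spry4 the lowest, 0.35 (TCM) to 0.90 (LA). Dusp4, Spry2, Spred1, Etv5 and Phlda1 lay between 8.38 and 25.7, and Dusp6 and Etv4 between 3.09 and 8.24.

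The profiles of the 10 genes were compared by the root-mean-square difference of log2 CPM over the 8 libraries, each gene centred on its own mean, a description in which all points share libraries. Among the 10, Phlda1 and Spry4 were nearest to each other at 0.25, and Etv4 and Ier3 were the farthest apart at 0.83. For Dusp6 the nearest of the other tested genes were Col5a3 (0.10), a fibrillar collagen chain, and Mex3b (0.12), an RNA-binding protein. The nearest of the 10 to Dusp6 was Spry4, at 0.28, which ranked 169 among all genes. For Spry4 the nearest were Mtfr2 (0.12) and Chst3 (0.14), and for Etv4 they were Hgf (0.23) and Slc5a7 (0.25). Etv5 was at 0.32 from Etv4 and ranked 23.

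Of 114 other genes of the ERK pathway, listed by role, 103 were tested. In TCM over CCM, 18 of them rose and 14 fell, with a median log2 FC of 0.0089, and in LA over vehicle 1 rose and 2 fell. Of all tested genes, 8.83% rose and 10.2% fell in TCM over CCM, and 2.55% were called in LA over vehicle, so that the 3 calls in LA over vehicle among 103 genes are near the share of all genes. Among ligands and receptors (27 tested), 5 rose and 4 fell in TCM over CCM. Among the core cascade from adaptors to ERK and its kinases (29 tested), 5 rose and 1 fell. Among other negative regulators (20 tested), 3 rose and 2 fell, and among other output genes (27 tested), 5 rose and 7 fell. The median log2 FC was -0.20, 0.07, 0.0095 and 0.04 in these lists, where that of the feedback inhibitors and output genes described above was -0.57. These lists too were chosen with earlier results of these data known, so the contrast is a description only.

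**Figure D4:**
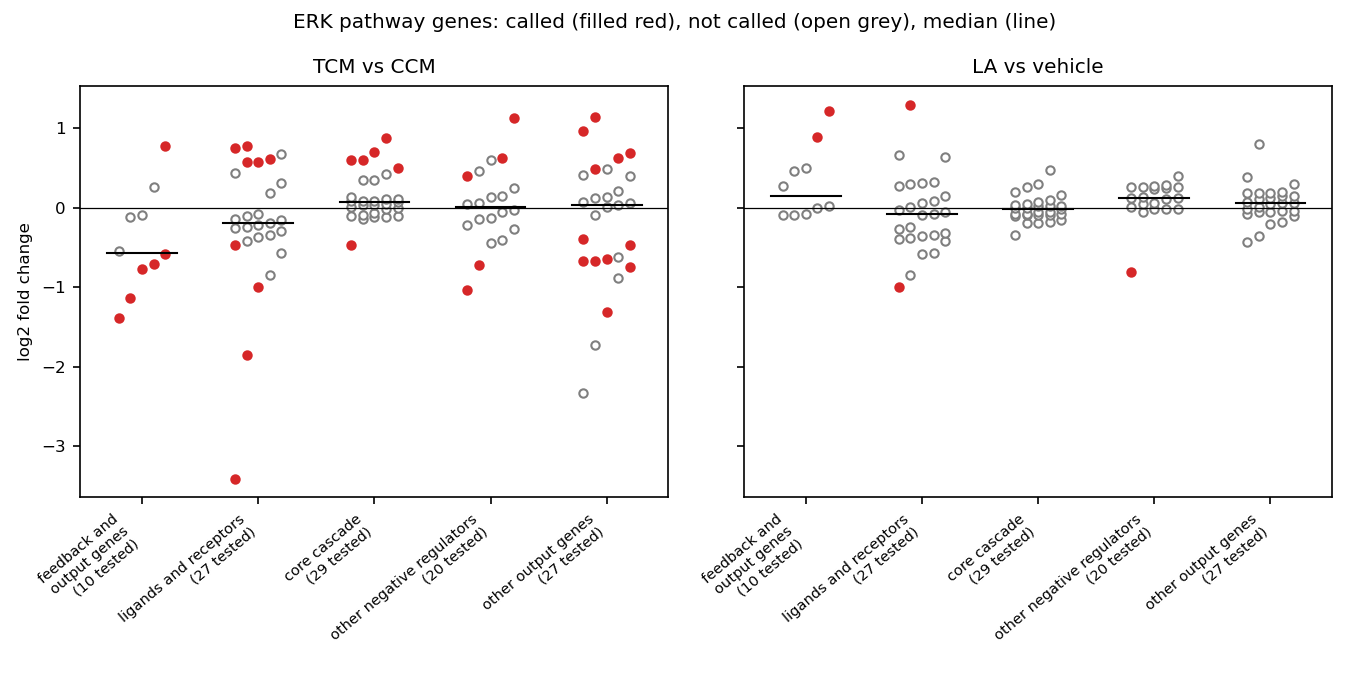
Log2 fold change (y axis) of tested ERK pathway genes by list, in TCM over CCM on the left and LA over vehicle on the right, filled red points being called and black lines medians. The feedback and output genes have a median of -0.57 in TCM over CCM, and the other 4 lists have medians between -0.20 and 0.07.

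Of the ligands and receptors, 2 of 27 were called in LA over vehicle (Pdgfc and Hgf) and 9 in TCM over CCM. Pdgfc, a ligand of the PDGF receptors, was measured at 76.2 and 81.3 CPM in vehicle, 63.6 and 59.0 CPM in CCM, 35.6 and 42.5 CPM in LA, and 29.0 and 32.6 CPM in TCM. It fell 1.99-fold in TCM over CCM (log2 FC -0.99, SE 0.12, adjusted p = 0.000221) and 2.01-fold in LA over vehicle (SE 0.12 on the log2 scale, adjusted p = 0.00146), and both calls held with each library left out. Hgf, the ligand of MET, rose 2.45-fold in LA over vehicle (log2 FC 1.29, adjusted p = 0.0297), from 6.03 and 8.51 CPM to 13.8 and 21.4 CPM. Its call was lost without vehicle replicate 1 (1.08, adjusted p = 0.22), vehicle replicate 2 (1.57, adjusted p = 0.119) or LA replicate 2 (0.91, adjusted p = 0.251). The FGF receptor gene Fgfr2 rose in TCM over CCM (log2 FC 0.75, adjusted p = 0.000716). For Pdgfa, another PDGF receptor ligand, the effect in TCM over CCM exceeded that in LA over vehicle by 1.18 (SE 0.21, adjusted p = 0.00515).

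In the cascade itself, Map2k1, which encodes MEK1, was measured at 122 and 129 CPM in TCM against 74.0 and 81.2 CPM in CCM (log2 FC 0.70, SE 0.10, adjusted p = 0.000595). Braf, which encodes a RAF kinase, was at 84.7 and 129 CPM in TCM and 60.2 and 56.6 CPM in CCM (log2 FC 0.87, SE 0.16, adjusted p = 0.00323). Both rose in this comparison. For Map2k1 the difference from LA over vehicle was 0.66 (adjusted p = 0.0116), and it was lost without vehicle replicate 2 (0.60, adjusted p = 0.0665), CCM replicate 1 (0.60, adjusted p = 0.086) or LA replicate 2 (0.61, adjusted p = 0.0647).

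Other negative regulators went both ways. Dusp10, a phosphatase that prefers p38 and JNK over ERK, rose 2.17-fold in TCM over CCM (log2 FC 1.12, SE 0.15, adjusted p = 0.000458), from 11.4 and 10.7 CPM to 26.5 and 21.6 CPM. Il17rd, which encodes the FGF antagonist SEF, fell 2.05-fold (log2 FC -1.04, SE 0.16, adjusted p = 0.00116), from 52.0 and 48.2 CPM to 21.9 and 27.0 CPM. Its difference from LA over vehicle was -1.08 (adjusted p = 0.0109) and was lost without vehicle replicate 1 (-0.94, adjusted p = 0.0556), CCM replicate 1 (-1.02, adjusted p = 0.051) or LA replicate 2 (-0.85, adjusted p = 0.0571). Lrig1, which lowers ERBB receptor levels, fell in LA over vehicle (log2 FC -0.81, adjusted p = 0.0159), a call lost without vehicle replicate 1 (-0.73, adjusted p = 0.137), vehicle replicate 2 (-0.90, adjusted p = 0.0809) or LA replicate 1 (-0.65, adjusted p = 0.118).

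Among the other output genes, the AP-1 gene Fosl2 was measured at 61.7 and 58.5 CPM in CCM, 112 and 152 CPM in TCM, 87.2 and 74.9 CPM in vehicle, and 62.6 and 57.7 CPM in LA. It rose 2.19-fold in TCM over CCM (log2 FC 1.13, SE 0.14, adjusted p = 0.000269). Its difference from LA over vehicle was 1.57 (SE 0.20, adjusted p = 0.000576). Klf6, a zinc finger factor, rose 1.61-fold in TCM over CCM (log2 FC 0.69, SE 0.09, adjusted p = 0.000321). These calls of Fosl2 and Klf6 held with each library left out.

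**Figure D5:**
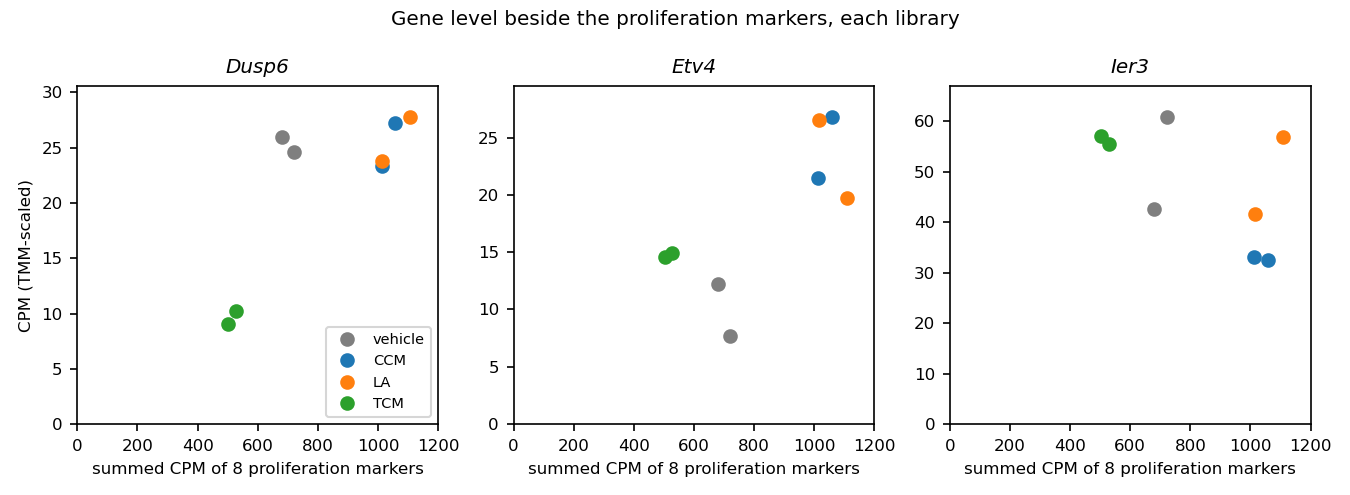
Level of Dusp6, Etv4 and Ier3 in CPM (y axis, from 0) against the summed CPM of 8 proliferation markers (x axis, from 0) in each library, colored by condition. The vehicle libraries, with 680 and 721 CPM of the markers, have Dusp6 levels within the range of CCM and LA, and their Etv4 levels are the lowest of the 4 conditions.

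The plot of the proliferation markers sets single genes beside them. Dusp6 and the marker sum were both lowest in TCM, and Dusp6 in vehicle, at a marker sum of 680 to 721 CPM, was at 24.6 and 26.0 CPM. Etv4 and the marker sum were both higher in CCM and in LA than in vehicle, with log2 FC of Etv4 of 1.26 and 1.22 and median log2 FC of the 8 markers of 0.60 and 0.62. Both also were lower in TCM than in CCM, and Etv4 was lower in vehicle than in TCM. The part of the markers in these levels was not tested.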

How the data were processed

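RNA from 8 libraries of 1 mouse FRC line was sequenced from poly(A)-selected, directional libraries. The authors aligned the reads with STAR 2.7.0a to Ensembl GRCm38 and made the deposited counts per gene with featureCounts of Subread 2.0.1. A second deposited table, named as normalized, held the same raw counts for 12137 genes (100% of values equal) and was not used further. Here counts were fitted with edgeR 4.0.16 in R 4.3.3 (TMM, robust quasi-likelihood, all 8 libraries, 2-sided, Benjamini-Hochberg adjustment over 12137 genes) with DESeq2 1.42.0 as an alternative. SE is the log2 FC divided by the square root of F, and intervals use the fit's degrees of freedom. Calls needed an adjusted p below 0.05 and a log2 FC beyond 0.39. Alternatives covered scaling, filters, the samples fitted, the replicate number, thresholds and each library left out. The script was tested on simulated counts.

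The 10 genes and the pathway and marker lists were chosen with earlier results of these data known. Other pathway genes were named by rule: per list, the 2 called genes with the smallest adjusted p in TCM over CCM and in LA over vehicle and 1 in the difference of effects, and the 2 genes nearest in profile to the 3 members of widest range. Gene positions are from GENCODE M21 and promoters from RefSeq GRCm38.p6. Depth sets the precision: Spry4, at 11 to 62 counts, is the least precise.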

Additional observations from a re-analysis of the deposited data

Results flagged for a closer look

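For 5 of the 10 genes the effect of TCM over CCM differed from the effect of LA over vehicle by the test of the difference itself, where 10.4% of all tested genes did and 6% were lower. The log2 difference of effects was -1.05 for Dusp4, -1.41 for Dusp6, -1.41 for Spry4, -1.93 for Etv4 and -0.98 for Etv5. Those of Dusp4, Dusp6 and Etv4 kept their call under every alternative tried. That of Spry4 lost it with DESeq2 (adjusted p = 0.145) and without 7 of the 8 libraries in turn. That of Etv5 lost it without 5 of the 8 in turn and with stricter thresholds. DESeq2 called Ier3, higher, in place of Spry4. For Dusp6, the effect in TCM over CCM was -1.39 and that in LA over vehicle 0.02. Etv4 was called in both, with opposite signs (-0.72 and 1.22). Etv5 was called in LA over vehicle and Spry4 and Dusp4 in TCM over CCM. The proliferation markers differed in the same direction, 8 of 8 being called lower in this difference with a median of -1.85, and their part in the result was not tested.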

How the results depend on the processing

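Of 27 calls of the 10 genes, 7 were kept under every alternative tried: Dusp6 in TCM over CCM, vehicle and LA and in the difference of effects, Dusp4 in TCM over LA and in the difference, and Etv4 in the difference. No call changed sign. The count of called genes depended on the setting, and the cause was not tested except where fewer libraries or a stricter threshold were used. Each count out of 10 is followed by the share of all genes called. With a log2 FC beyond 1, the counts were 2 in TCM over CCM (6.26%), 1 in LA over vehicle (0.709%), 2 in TCM over vehicle (5.5%) and 3 in TCM over LA (5.13%). With a test against the 0.39 threshold itself (glmTreat), they were 1 in TCM over CCM (8.07%, near the share of all genes), 0 in LA over vehicle (0.461%), 3 in the difference (5.15%), 0 in CCM over vehicle (0.0165%), 1 in TCM over vehicle (6.8%) and 3 in TCM over LA (6.11%). Without a filter on low counts, they were 4 in LA over vehicle (2.82%), 2 in CCM over vehicle (2.51%) and 3 in LA over CCM (1.76%). With only the libraries compared, they were 1 (3.74%), 2 (5.59%) and 3 (2.64%) in the same order. DESeq2 gave 2 in CCM over vehicle (1.95%) and 4 in TCM over vehicle (15%). With each library left out in turn, a condition was left with a single library. The counts then changed in every comparison, as did the share of all genes called. The lowest in TCM over CCM, 1 of 10 without CCM replicate 1, stood beside 9.85% of all genes and so is near that share.

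Library totals in place of TMM moved the median log2 FC of all genes in TCM over CCM to -0.14 and the share of calls that were higher from 46.3% to 24.2%. In the same setting 6 of the 10 genes were lower and 1 higher, where 22.2% of all tested genes were called. Of those 2692 genes, 2041 were lower. Over all genes, calls in TCM over CCM numbered 2314, and 1195 without CCM replicate 1, 1284 without CCM replicate 2, 760 with a log2 FC beyond 1, 979 with glmTreat and 1331 with a log2 FC beyond 0.68. Those in LA over vehicle numbered 310, between 57 and 617 with 1 library left out, 656 without a filter, 56 with glmTreat, 176 with a log2 FC beyond 0.68 and 86 beyond 1, 596 with the CCM numbers crossed in the replicate block and, the most, 1117 with the replicate block and only the libraries compared. For the 103 other pathway genes, the calls in TCM over CCM ranged from 6 to 39 (32 reported) and in LA over vehicle from 1 to 10 (3 reported). The proliferation markers called ranged from 5 to 8 and from 0 to 6.

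The labels share replicate numbers between conditions, with only 2 pairs. The correlation of deviations between same-numbered libraries was 0.35 for vehicle and LA, 0.11 for vehicle and TCM, 0.11 for LA and TCM, -0.04 for vehicle and CCM, -0.08 for CCM and LA and -0.24 for CCM and TCM, so the number was not taken as a pairing. With the replicate block in edgeR, 7 of the 10 genes were called in TCM over CCM (19.5% of all genes), with Spry1 gained (adjusted p = 0.0273). In LA over vehicle 2 were called (2.93%) and in the difference 5 (10.8%), of which 4 were lower and 1 higher. In the difference Spry4 lost its call (adjusted p = 0.0531) and Ier3 gained one (adjusted p = 0.0206). With the replicate block and only the libraries compared, 4 were called in LA over vehicle (9.2% of all genes). In the same setting 3 were called in CCM over vehicle (6.41%) and 3 in LA over CCM (3.09%). An alternative chosen after seeing the data crossed the numbers of CCM in the block. It gave 2 calls in CCM over vehicle (3.77% of all genes) and 2 in LA over CCM (2.33%).

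Depth limited Spry4 most, at 11 to 62 counts per library.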

Other observations

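Egr1, Jun, Btc and Areg, singled out after their values were seen, were also lowest in TCM. They come from lists that went both ways in TCM over CCM. Among other output genes 5 were called higher and 7 lower, and among ligands and receptors 5 higher and 4 lower. Those called higher include Fosl2 (log2 FC 1.13), Maff (0.96), Pdgfd (0.78) and Fgfr2 (0.75). Egr1, an immediate early target of ERK, was measured at 311 and 165 CPM in vehicle, 134 and 121 CPM in CCM, 395 and 194 CPM in LA, and 49.7 and 52.9 CPM in TCM. Its log2 FC in TCM over CCM was -1.31 (SE 0.33, adjusted p = 0.015 in edgeR), a call lost without CCM replicate 1 (-1.24, adjusted p = 0.0717), TCM replicate 1 (-1.27, adjusted p = 0.339) or TCM replicate 2 (-1.36, adjusted p = 0.286). Jun, an AP-1 subunit, was at 56.7 and 54.1 CPM in CCM and 35.5 and 34.3 CPM in TCM (log2 FC -0.67, SE 0.12, adjusted p = 0.00309), a call kept with each library left out. The ligand gene Btc, which encodes the EGF receptor ligand betacellulin, had 59 and 67 counts in CCM and 13 and 16 in TCM (log2 FC -1.86, SE 0.32, adjusted p = 0.00203), also kept with each library left out. Areg, which encodes amphiregulin, was counted 17 and 11 times in CCM and 1 time in each TCM library.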
